A study of Mus musculus with 20 samples.

Results

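Tight junctions seal neighbouring epithelial cells near their apical surface. Claudins form the strands and set which ions and molecules pass between cells, occludin and JAM-A (the product of F11r) are further membrane proteins of the junction, and ZO-1 (the product of Tjp1) is a cytoplasmic scaffold that ties them to actin. In the small intestine claudin-2 and claudin-15 form cation pores, whereas claudin-3, claudin-4 and claudin-8 are generally counted as sealing claudins. The 10 genes described here, Cldn2, Cldn3, Cldn4, Cldn7, Cldn8, Cldn15, Cldn23, Ocln, Tjp1 and F11r, were taken by name from the 35204 genes of the gene-level table, and all 10 passed the filter that left 16306 genes to test.

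RNA of the terminal ileum was sequenced from 20 female C57BL/6 mice, with 5 mice in each of 4 groups. The study's methods give their age as 7 weeks, before the 3 weeks of feeding. SPF (specific pathogen free) mice were fed for 3 weeks either a control amino acid diet (CD) or the same kind of diet without tryptophan (TDD), and 2 further groups on the same diets received ABX, a mixture of ampicillin, vancomycin, metronidazole, neomycin and gentamycin in sweetened drinking water (CD+ABX and TDD+ABX). The tissue was a whole 0.5 cm piece cut 2 cm from the caecum, so the RNA came from epithelium, muscle, vessels and immune cells together, and fewer cells of a type cannot be told apart from less RNA per cell. Total counts per mouse ranged from 36676963 to 50751245 in CD mice, from 37664356 to 58618713 in TDD mice, from 41490809 to 58662617 in CD+ABX mice and from 41198920 to 50576414 in TDD+ABX mice. Nothing in the labels says whether cages were shared, so the p-values measure the spread between these mice.

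The libraries were checked against markers of the labelled tissue. Enterocyte genes were abundant: Sis, the brush border sucrase-isomaltase, had a median of 7573 CPM (counts scaled by TMM to a common library size) in CD mice. Fabp6 and Slc10a2, the bile acid binding protein and bile acid transporter that mark the ileum, were low in SPF mice, with medians of 0.711 and 2.44 CPM in CD mice and 0.518 and 5.95 CPM in TDD mice. With ABX the medians were 14.6 (Fabp6) and 33.1 CPM (Slc10a2) on CD, and 19.8 and 36.3 CPM on TDD. The tissue labelled ileum therefore held little of the ileal bile acid markers in SPF mice, and more in both ABX groups. Between the diets in SPF mice, Slc10a2 had a log2 fold change of 1.32 (SE 0.47, edgeR's q = 0.0679) for TDD against CD. DESeq2 called it there, 1 of 12 enterocyte markers, beside 16.9% of all genes. Whether the pieces came from the same position along the intestine in all groups was not tested, and a difference in position between SPF and ABX-treated mice cannot be told apart from ABX in the values that follow. CD mouse 2 stood apart from the other CD mice: its enterocyte markers summed to 21410 CPM against 38520 to 44870 CPM in the other 4, its smooth muscle markers to 2957 CPM against 568 to 1769 CPM, and it had the lowest level in its group of 8 of the 10 genes and the highest of the other 2, Cldn2 and Cldn8. Calls of the 10 genes that change without this mouse are given both ways.

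Levels were compared between genes per transcript length, in TPM, the length-scaled abundance from the per-transcript files. Cldn7 was the most abundant of the 10 at 815 TPM averaged over the 20 mice, followed by Cldn15 at 469 TPM and Cldn3 at 212 TPM. F11r averaged 127 TPM, Ocln 62.5 TPM and Tjp1 34.4 TPM. Cldn4 (25.8 TPM), Cldn2 (23.9 TPM) and Cldn23 (16.3 TPM) were lower, and Cldn8 lay at 1.95 TPM. No mouse's Cldn15 value reached the lowest Cldn7 value (621 against 629 TPM), and the ranges of Cldn15 and Cldn3 were also separate. The ranges of Cldn3 and F11r overlapped, but Cldn3 lay above F11r in every mouse. Those of Tjp1 and Cldn4, of Cldn4 and Cldn2, and of Cldn2 and Cldn23 also overlapped. The order within each of these last pairs differed between mice. Ocln lay below F11r in every mouse, and Cldn8 below all others.

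The 7 claudins among the 10 genes held 98.5% of the summed TPM of the 35 claudin genes in the files. Cldn7 held 47.2% ± 3.66 of it in CD mice, 49.9% ± 1.77 in TDD mice, 54.3% ± 2.59 in CD+ABX mice and 53.8% ± 1.39 in TDD+ABX mice (SD, n = 5 each). Cldn15 held 32.6% ± 2.78, 32.5% ± 1.39, 26.4% ± 3.04 and 27.0% ± 2.03 in the same order. The pore-forming Cldn15 thus took a smaller mean share, and Cldn7 a larger one, in both ABX groups. Summed claudin TPM was 1687 ± 140 in CD, 1473 ± 140 in TDD, 1599 ± 179 in CD+ABX and 1590 ± 217 in TDD+ABX mice (SD, n = 5 each). These shares are a description and were not tested.

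**Figure D1:**
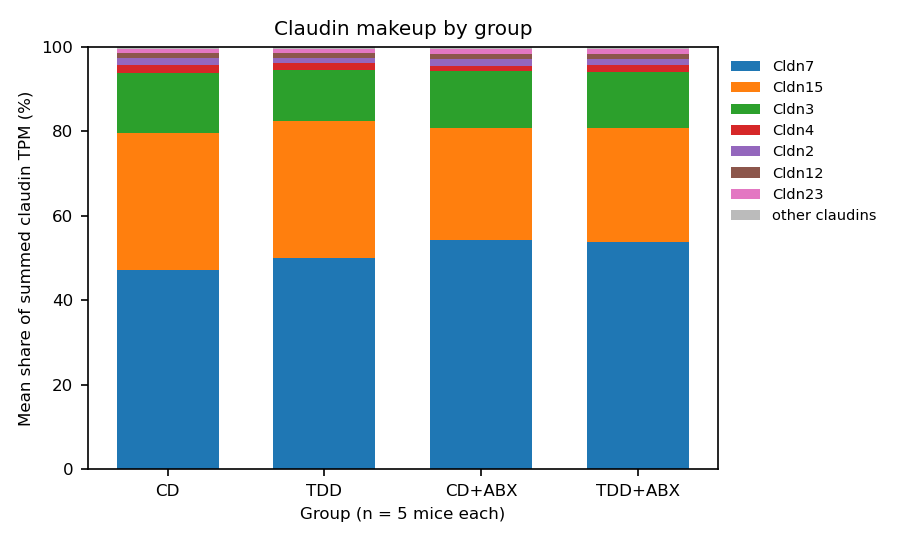
Mean share of the summed claudin TPM (y axis, percent) held by the 7 most abundant claudins and by all others in each group of 5 mice (x axis). Cldn7 holds the largest share in every group, and the Cldn15 share is 32.6% in CD and 26.4% in CD+ABX mice.

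In SPF mice, TDD and CD were compared to ask what the loss of dietary tryptophan does to these genes. At q, the Benjamini-Hochberg adjusted p of edgeR's quasi-likelihood test, under 0.05 none of the 10 passed, beside 14.4% of all 16306 genes tested, and 3 had an unadjusted p under 0.05, beside 28.4% of all genes. The median log2 fold change of the 10 was -0.12, against 0.01 over all genes tested, with 9 values below 0 and 1 above. DESeq2 called 3 of them, Cldn2, Cldn3 and Tjp1, beside 16.9% of all genes. Goblet cell markers summed to 8907 ± 923 CPM in CD and 7056 ± 834 CPM in TDD mice (SD, n = 5 each), with Fcgbp at 37% of the sum, all 7 fold changes below 0 and 1 gene called beside 14.4% of all genes. B cell markers summed to 46.2 ± 53.1 CPM in CD and 113 ± 69.7 CPM in TDD mice (SD, n = 5 each). All 7 of their log2 fold changes were above 0 (median 1.26), with 0 called beside 14.4% of all genes. The goblet sum holds Muc2 at 2 times the sum of its transcripts. The part of goblet and B cell markers in the values of the 10 genes was not tested.

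Cldn3, a sealing claudin, had the smallest p. Its level was 197, 196, 211, 200.0 and 224 CPM in the CD mice and 176, 154, 165, 173 and 139 CPM in the TDD mice. The groups did not overlap, as for 9.58% of all genes tested. Its log2 fold change was -0.35 (SE 0.12, 95% interval -0.59 to -0.11), and edgeR's q was 0.0513. Leaving out CD mouse 2 gave a log2 fold change of -0.37 with q = 0.0448, whereas leaving out TDD mouse 5 gave -0.30 with q = 0.128 (edgeR).

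Cldn2, the pore-forming claudin of crypt cells, read 45.0, 69.3, 46.4, 41.4 and 58.5 CPM in the CD mice. TDD mice read 31.8, 32.1, 33.2, 37.7 and 50.7 CPM. Of the TDD mice, 4 lay below every CD mouse and 1 lay within the CD range. The log2 fold change was -0.49 (SE 0.18, edgeR's q = 0.0716). Without TDD mouse 5 it was -0.63 with q = 0.0258, and without CD mouse 2 it was -0.38 (edgeR). The crypt markers, in whose cells Cldn2 is best known, summed to 1053 ± 166 CPM in CD and 892 ± 178 CPM in TDD mice (SD, n = 5 each), 0 of the 8 genes called beside 14.4% of all genes. Of their fold changes 7 were below 0, with a median log2 fold change of -0.20 against 0.01 over all genes. Their part in the Cldn2 difference was not tested.

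Tjp1 was the member with a value above 0, at 147 ± 8.96 CPM in CD and 163 ± 8.83 CPM in TDD mice (SD, n = 5 each). Its log2 fold change was 0.15 (SE 0.06, edgeR's q = 0.0766). Cldn4, a sealing claudin, spread most: its 5 CD mice lay between 13.5 and 75.6 CPM, so its log2 fold change of -0.40 came with an interval of -1.41 to 0.61. It was -0.64 without CD mouse 2 and -0.09 without CD mouse 3. The remaining values lay between -0.26 (Cldn8) and -0.02 (Cldn7), with q of 0.263 or more (edgeR).

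**Figure D2:**
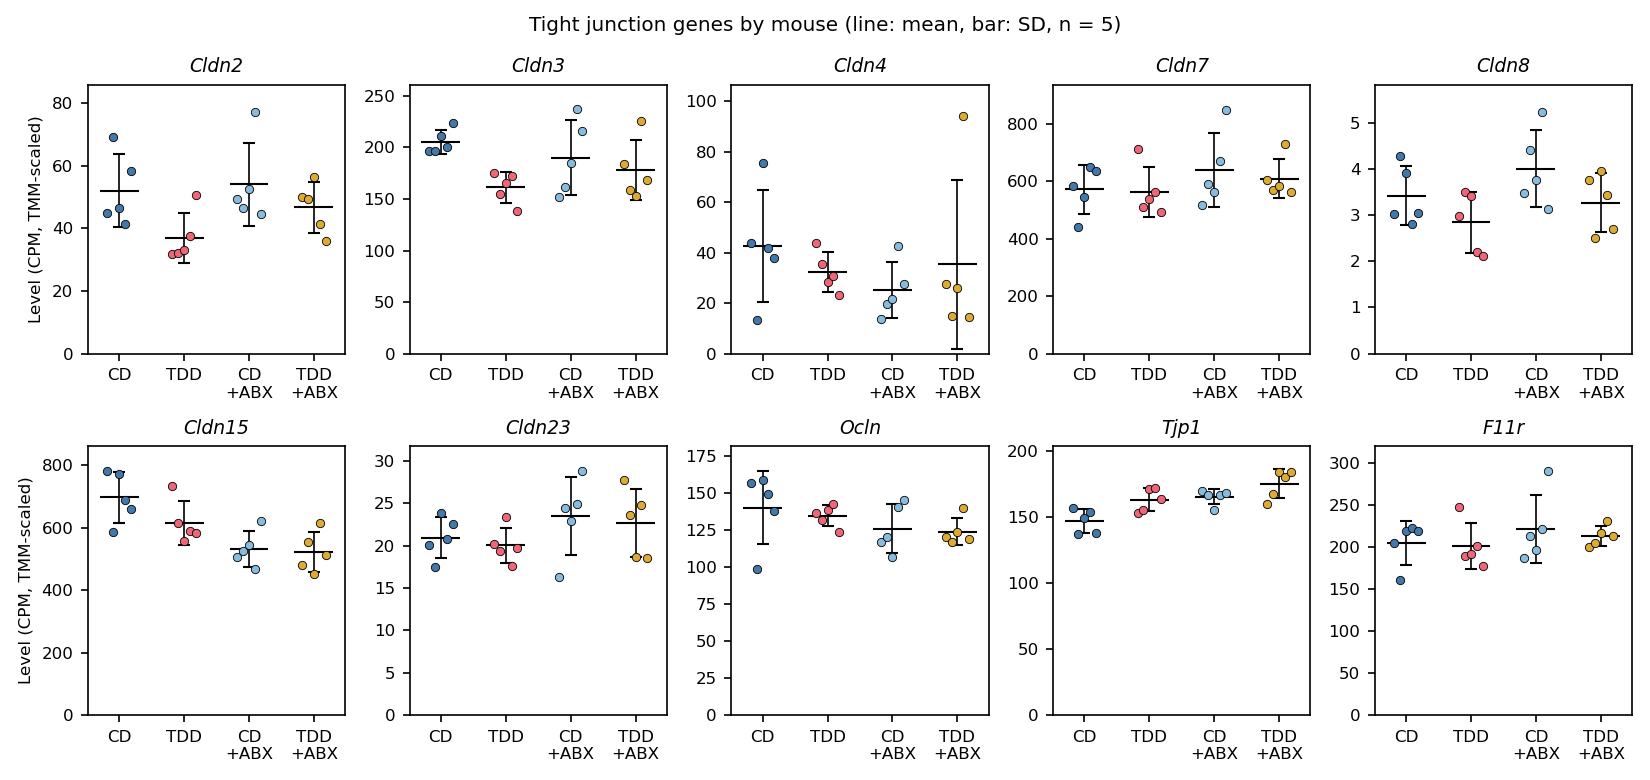
Level of each of the 10 genes (y axes, TMM-scaled CPM, each from 0) in each of the 20 mice, by group (x axes); lines are means and bars the SD of 5 mice. Every CD mouse has more Cldn3 than every TDD mouse, and the Cldn15 values of CD and CD+ABX mice overlap.

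In ABX-treated mice the same diets were compared, and 0 of the 10 genes were called by edgeR, beside 1.64% of all genes tested. DESeq2 also called 0, beside 3.77% of all genes, and 0 had an unadjusted p under 0.05, beside 14.7%. No member had groups that did not overlap, against 4.78% of all genes. The median log2 fold change of the 10 was -0.05, against -0.003 over all genes tested. Cldn3 was at 190 ± 36.0 CPM in CD+ABX and 178 ± 29.1 CPM in TDD+ABX mice, and Cldn2 at 54.1 ± 13.3 and 46.7 ± 8.03 CPM (SD, n = 5 each). The interval of the diet's log2 fold change was -0.34 to 0.15 for Cldn3 and -0.58 to 0.16 for Cldn2, so decreases of the size measured in SPF mice were within the interval for Cldn2 and just outside it for Cldn3. The interaction of diet and ABX, which tests whether the diet's fold change differed between SPF and ABX-treated mice, called 0 of the 10 genes in edgeR, beside 0.0368% of all genes, and 0 in DESeq2, beside 0.824%. None had an unadjusted p under 0.05, beside 8.87% of all genes. For Cldn3 it was 0.25 (SE 0.17, edgeR's q = 0.71) and for Cldn2 0.28 (SE 0.25, edgeR's q = 0.814).

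ABX was compared with SPF on each diet to ask what depletion of the microbiota does; these comparisons use the same mice as the diet comparisons and are not independent of them. On CD, 2 of the 10 genes were called, 1 fallen and 1 risen, beside 12.6% of all genes tested, and neither reached 2-fold. They were also the 2 with an unadjusted p under 0.05, beside 26.5% of all genes, and the 2 that DESeq2 called, beside 16% of all genes. The median log2 fold change of the 10 was 0.08, against -0.0048 over all genes. In no member were the groups separate, against 9.74% of all genes.

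Cldn15, the main cation pore claudin of the small intestine, fell with ABX on CD. It read 782, 586, 773, 689 and 661 CPM in the CD mice and 506, 525, 545, 467 and 623 CPM in the CD+ABX mice. Of the CD+ABX mice, 4 lay below every CD mouse, and the fifth lay above the lowest CD mouse. The log2 fold change was -0.39 (SE 0.10, 95% interval -0.61 to -0.17), with edgeR's q = 0.0186. The call was lost when only the CD and CD+ABX mice were fitted (edgeR's q = 0.0561). Leaving out each mouse in turn kept it in 17 of 20 fits. It was lost without CD mouse 1 (q = 0.0507), CD mouse 3 (q = 0.0535) or CD+ABX mouse 4 (q = 0.0575), all in edgeR; without CD mouse 2, which stood apart, q was 0.00866. On TDD, Cldn15 was 615 ± 69.3 CPM without and 523 ± 64.9 CPM with ABX (SD, n = 5 each). The log2 fold change there was -0.24 (SE 0.10, edgeR's q = 0.129), and the interaction was 0.15 (SE 0.15, edgeR's q = 0.835), so a difference in the ABX effect between the diets was not detected.

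Other enterocyte genes moved in both directions in the same comparison. Of 12 enterocyte markers, 4 rose and 2 fell on CD, beside 12.6% of all genes called. Fabp2, an enterocyte fatty acid binding protein, rose by a log2 fold change of 1.20 (SE 0.18, edgeR's q = 0.000543), Anpep, a brush border peptidase, rose by 1.09 (SE 0.19, q = 0.00114), and Slc10a2 by 4.07 (SE 0.48, q = 9.83e-05). Fabp6 rose by 5.14 (SE 1.10, q = 0.00585), with CD+ABX mice spread from 2.65 to 144 CPM. Sis fell by 1.03 on the log2 scale (SE 0.20, q = 0.00313) and Apoa4, a lipid transport protein, fell by 1.61 (SE 0.35, q = 0.00593). The same 6 genes were called on TDD, beside 15.4% of all genes: Fabp2 rose by 1.22, Anpep by 0.80, Slc10a2 by 2.65 and Fabp6 by 3.92, and Sis fell by 0.74 and Apoa4 by 1.13, with edgeR's q between 0.000556 and 0.0336. The summed enterocyte markers were 38120 ± 9643 CPM in CD and 37160 ± 7575 CPM in CD+ABX mice (SD, n = 5 each), with Apoa1 the most abundant at 19.4% of the sum. B cell markers summed to 46.2 ± 53.1 CPM in CD and 8.04 ± 2.60 CPM in CD+ABX mice (SD, n = 5 each). The part of these changes in the Cldn15 difference was not tested.

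**Figure D3:**
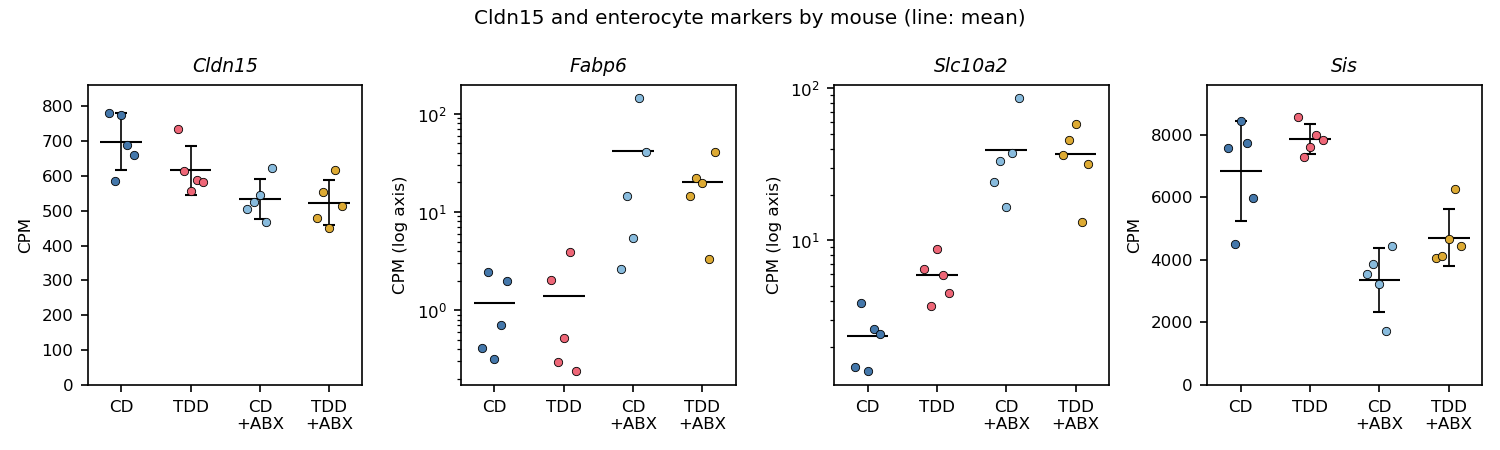
CPM of Cldn15, Fabp6, Slc10a2 and Sis (y axes, log scale for Fabp6 and Slc10a2) in each of the 20 mice, by group (x axes); horizontal lines are means and bars, on the linear axes, the SD of 5 mice. Slc10a2 is 16.6 CPM or more in every CD+ABX mouse and 3.89 CPM or less in every CD mouse, while the Cldn15 groups overlap on CD.

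Tjp1 rose with ABX on CD, from 157, 137, 149, 153 and 138 CPM in CD mice to 170, 166, 155, 167 and 168 CPM in CD+ABX mice. The lowest CD+ABX mouse lay below the highest CD mouse, and the other 4 lay above all CD mice. The log2 fold change was 0.17 (SE 0.06, edgeR's q = 0.0498), at the edge of the threshold: of the 20 fits that leave out 1 mouse, 6 kept the call, and without CD mouse 2 the value was 0.15 with q = 0.0723. On TDD the log2 fold change was 0.11 (SE 0.06, edgeR's q = 0.208). With ABX on CD all 8 smooth muscle fold changes were above 0 (median 0.21, 0 called). All 7 endothelial ones were below 0 (median -0.15, 2 called), as were all 7 B cell ones (median -3.33, 0 called). Over all genes edgeR called 12.6% there. The part of these markers in the Tjp1 difference was not tested. Ocln was not called in the fit to all mice (-0.15, SE 0.11, edgeR's q = 0.401), but without CD mouse 2 its log2 fold change on CD was -0.25 with q = 0.0469. On TDD, 0 of the 10 genes were called by edgeR with ABX, beside 15.4% of all genes, and 0 by DESeq2, beside 19.9%. Cldn15 alone had an unadjusted p under 0.05, beside 30.5% of all genes, and none were separate, against 11% of all genes. The median log2 fold change of the 10 there was 0.12, against -0.03 over all genes.

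**Figure D4:**
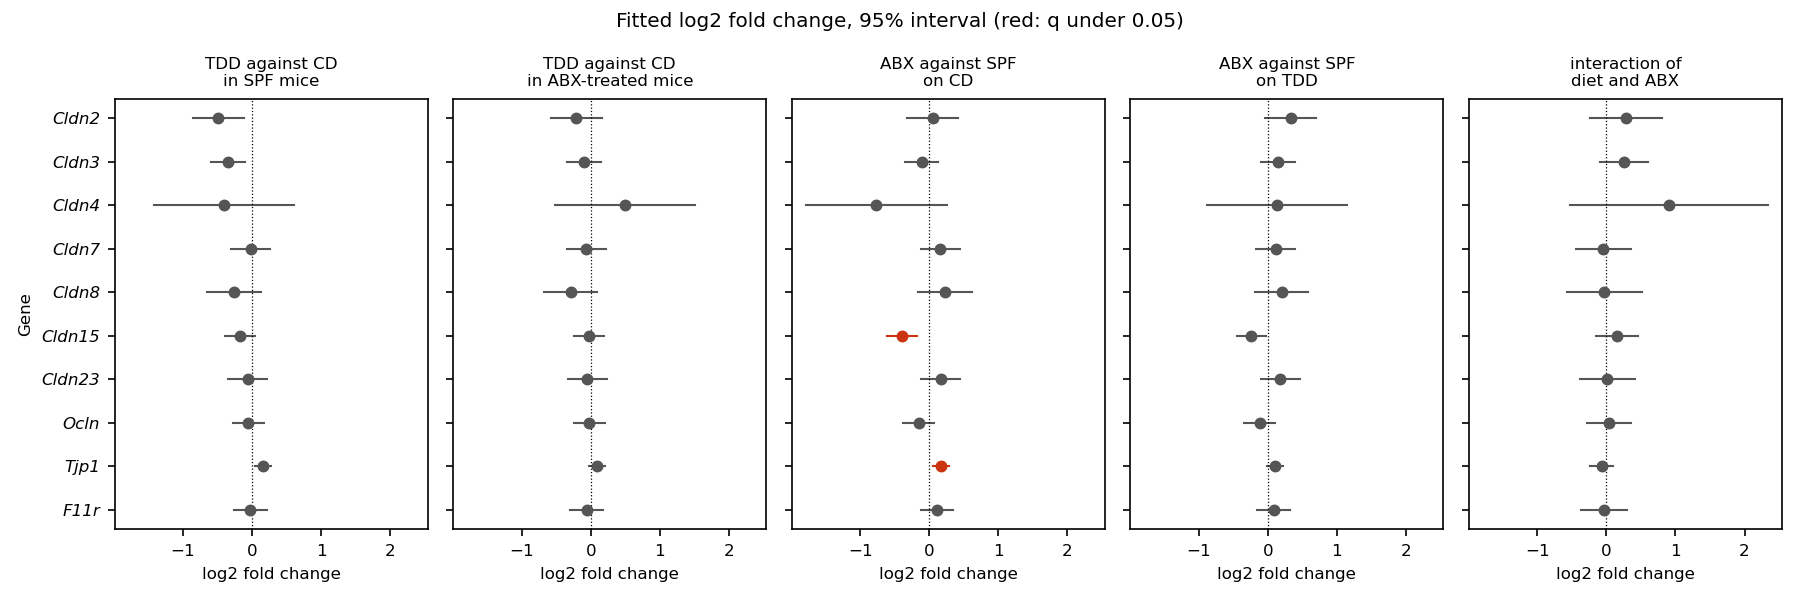
Fitted log2 fold change (x axes) of the 10 genes (y axis) in the 4 comparisons and their interaction; points are estimates and lines 95% intervals of the edgeR fit, red where q is under 0.05. The red points are Cldn15 and Tjp1 for ABX against SPF on CD.

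Other junction genes were taken from lists of 49 further tight junction genes (37 tested) and 15 adherens junction and desmosome genes (15 tested). The tight junction genes that fell for TDD in SPF mice included Cldn5, the claudin of endothelium, from 4.42 ± 1.01 to 2.53 ± 0.392 CPM (log2 fold change -0.81, SE 0.14, edgeR's q = 0.00102) and Pard3, a polarity scaffold, from 52.1 ± 5.26 to 42.6 ± 1.90 CPM (q = 0.00656), with SD over 5 mice each. In the same comparison Vwf, an endothelial marker, fell by 0.46 on the log2 scale (edgeR's q = 0.00143), 1 of the 7 endothelial genes called beside 14.4% of all genes, and the sum of those 7 was 132 ± 8.96 CPM in CD and 135 ± 14.2 CPM in TDD mice (SD, n = 5 each). Of the 7 endothelial log2 fold changes there, 3 were above 0 and 4 below, with a median of -0.03. The part of the endothelial genes in the Cldn5 difference was not tested. The count of calls among the 37 genes in this comparison is not reported here, but their share was below the 14.4% of all genes called. The median over the 37 genes was -0.03, against 0.01 over all genes. With TDD in ABX-treated mice Cldn5 fell again (log2 fold change -0.59, SE 0.14, edgeR's q = 0.0415), the 1 call among the 37, beside 1.64% of all genes. Vwf there had a log2 fold change of -0.31 (SE 0.09, edgeR's q = 0.0764). DESeq2 called it, 1 of the 7 endothelial genes, beside 3.77% of all genes. Of the 7 endothelial log2 fold changes 6 were below 0, with a median of -0.02 against -0.003 over all genes. The part of these genes in the Cldn5 value was not tested.

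With ABX on CD, 2 of the 37 tight junction genes and 2 of the 15 adherens and desmosome genes were called, beside 12.6% of all genes, and on TDD 3 and 1, beside 15.4%. On CD, Ybx3, a junction-associated transcription factor, rose by 0.25 (SE 0.07, edgeR's q = 0.0323) and Esam, an endothelial adhesion molecule, fell by 0.27 (SE 0.08, q = 0.0271). On TDD, Pard3 rose by 0.39 (SE 0.07, edgeR's q = 0.00137), Ybx3 by 0.33 (q = 0.00712) and Esam fell by 0.27 (q = 0.026). Among adherens and desmosome genes, Pkp2, a desmosomal plaque protein, rose on both diets (0.22 with q = 0.0317 on CD and 0.28 with q = 0.00803 on TDD, edgeR), and Nectin1 fell on CD (-0.39, SE 0.08, q = 0.00299). The diet comparisons called 0 of the 15 by edgeR or DESeq2, with 1 at an unadjusted p under 0.05 without ABX and 0 with it. Beside them, edgeR called 14.4% of all genes without ABX and 1.64% with it, DESeq2 16.9% and 3.77%, and 28.4% and 14.7% had an unadjusted p under 0.05. The most abundant genes were Lsr, Ybx3 and Tjp3 (123, 116 and 104 TPM) in the tight junction list and Epcam, Ctnnb1 and Cdh1 (1215, 364 and 209 TPM) in the other. Esam is also among the 7 endothelial markers, whose sums moved with it: 132 ± 8.96 CPM in CD, 117 ± 8.57 in CD+ABX, 135 ± 14.2 in TDD and 111 ± 7.79 in TDD+ABX mice (SD, n = 5 each). Their part in the Esam difference was not tested.

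Within groups, some members varied together from mouse to mouse. After subtraction of each group's mean, log2 CPM of Cldn7 and F11r correlated with r = 0.938 over the 20 mice, Cldn4 and Ocln with r = 0.773, and Ocln and F11r with r = 0.751. Without CD mouse 2 these were 0.921, 0.683 and 0.641. Cldn2 went the other way from Cldn15 (r = -0.635, and -0.559 without CD mouse 2) and from F11r (r = -0.448, and -0.298), and Tjp1 had r between -0.297 and 0.543 with the other members. These values are descriptions; the points share the tissue pieces and their cell makeup. Likeness among 14047 genes was taken from log2 CPM over the 20 mice without subtraction of group means, so differences between groups enter it. By this measure Cldn15 was closest to Fam234a (Pearson r = 0.929, Spearman rho = 0.949, and r = 0.922 without the 2 mice farthest from the median), Lpar1 (r = 0.915, and 0.884 without such mice) and Gstt1 (r = 0.911, and 0.854). Tjp1 was closest to Ahnak (r = 0.833), Tnks1bp1 (r = 0.829) and C530008M17Rik (r = 0.819), which were 0.704, 0.761 and 0.696 without the 2 mice farthest from its median.

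Promoter sequence was available for 8 of the 10 genes in 10 windows of 300 bases (250 before to 50 after the RefSeq start, GRCm38.p6), none for Cldn8 or Cldn23. The letters GCGTG, the core recognised by the aryl hydrocarbon receptor, a sensor of tryptophan metabolites, were searched on both strands, as were TTTAT, a core of CDX factors, and TATAAA, which overlaps TTTAT on the opposite strand. GCGTG was in 7 of the 10 windows against 32.4% of 32851 windows of all genes, TTTAT in 3 against 40.0%, and TATAAA in 1 against 13.6%. The 7 windows belong to 5 of the 8 genes, against 35.2% of all genes with a window, and the 2 Ocln windows overlap and share a match. A match is a description of letters and not a site. Shown are the called gene that fell with ABX, Cldn15 (chr5:136967619-136967918, + strand; TTTAT in capitals), and the 2 genes that varied most alike, Cldn7 (chr11:69964529-69964828, + strand) and F11r (chr1:171437311-171437610, + strand), with GCGTG on either strand in capitals.
Cldn15: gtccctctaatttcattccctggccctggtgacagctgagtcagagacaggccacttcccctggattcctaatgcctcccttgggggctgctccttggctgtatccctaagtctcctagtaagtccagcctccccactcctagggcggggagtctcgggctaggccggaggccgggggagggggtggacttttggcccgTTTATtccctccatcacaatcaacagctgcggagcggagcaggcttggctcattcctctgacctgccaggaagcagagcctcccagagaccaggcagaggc
Cldn7: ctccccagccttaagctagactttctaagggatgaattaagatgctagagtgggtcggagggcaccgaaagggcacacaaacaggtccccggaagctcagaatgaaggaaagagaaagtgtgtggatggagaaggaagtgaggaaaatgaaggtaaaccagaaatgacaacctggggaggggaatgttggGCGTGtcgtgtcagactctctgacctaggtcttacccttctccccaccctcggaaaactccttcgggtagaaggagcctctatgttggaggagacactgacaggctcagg
F11r: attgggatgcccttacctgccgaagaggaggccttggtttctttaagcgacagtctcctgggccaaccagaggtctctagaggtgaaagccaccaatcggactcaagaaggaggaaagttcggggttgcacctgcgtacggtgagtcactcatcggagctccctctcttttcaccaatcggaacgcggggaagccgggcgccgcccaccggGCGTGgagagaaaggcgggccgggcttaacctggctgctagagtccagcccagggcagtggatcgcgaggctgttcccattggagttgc

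For Tjp1, Ocln and F11r the share of the gene's TPM held by each transcript was compared. ZO-1 is made with or without an alternatively spliced stretch. In Tjp1, transcript Tjp1-202 (28 exons) held 65.7% ± 3.13 in CD, 65.2% ± 1.51 in TDD, 67.9% ± 2.54 in CD+ABX and 67.9% ± 2.86 in TDD+ABX mice (SD, n = 5 each). Tjp1-201, which lacks exon 20 of Tjp1-202, held 11.4% to 15.2% on average. That exon, coding, 240 bases (80 codons) at chr7:65314093-65314332, - strand, GRCm38 (GENCODE M21), is printed in capitals with 30 bases of the neighbouring exons on each side. Tjp1-202 is 7049 and Tjp1-201 6102 bases long, so the 2 transcripts also differ elsewhere. Their shares do not measure this exon alone.
Tjp1 exon 20: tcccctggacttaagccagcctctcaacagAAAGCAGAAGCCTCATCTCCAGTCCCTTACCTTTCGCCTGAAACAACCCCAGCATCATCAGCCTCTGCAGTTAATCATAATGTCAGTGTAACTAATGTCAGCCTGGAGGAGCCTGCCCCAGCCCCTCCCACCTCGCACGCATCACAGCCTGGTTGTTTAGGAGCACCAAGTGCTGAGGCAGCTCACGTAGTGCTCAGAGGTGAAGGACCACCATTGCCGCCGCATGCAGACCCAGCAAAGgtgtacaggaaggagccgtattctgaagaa

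Of 40 tests (10 transcripts at 5% or more of their gene, 4 comparisons), 0 passed at an adjusted p under 0.05 in a two-sided exact permutation test, and 2 had an unadjusted p under 0.05. With 5 mice against 5 the smallest p is 0.00794. At that p 7 of the 40 tests had to pass together, and at any larger p no fewer. The count of 0 therefore says little about whether shares changed. The smallest p was for Ocln-202, which held 24.9% ± 1.61 in CD+ABX and 20.5% ± 1.73 in TDD+ABX mice (SD, n = 5 each; exact permutation p = 0.0159, adjusted p = 0.56). The main F11r transcript held 84.1% to 86.2% in the 4 groups. Cldn15 was not among the genes tested, and its values are a description chosen after they were seen. The non-coding Cldn15-203 held 7.77% (6.27% to 8.53%) of Cldn15 TPM in CD and 12.5% (10.95% to 14.25%) in TDD mice, which did not overlap. It held 8.64% (7.6% to 9.6%) in CD+ABX and 9.84% (8.92% to 10.84%) in TDD+ABX mice, which overlapped. The TDD and TDD+ABX ranges were also separate. By estimated counts, the 621-base Cldn15-203 held 1.76% to 2.44% of Cldn15 in CD and 3.19% to 4.23% in TDD mice. In the 40 tests above the groups always overlapped. The share of all transcripts whose groups do not overlap was not computed.

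**Figure D5:**
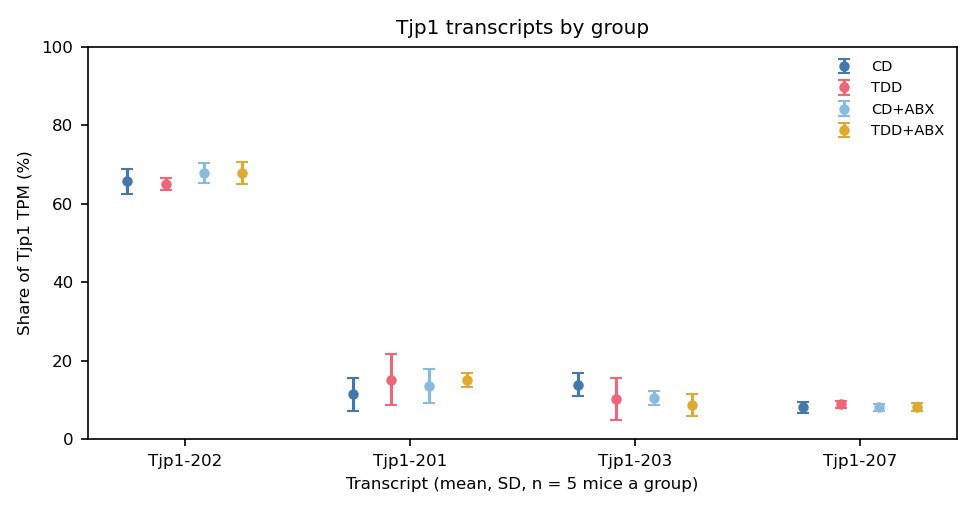
Share of Tjp1 TPM (y axis, percent) held by its 4 most abundant transcripts (x axis) in each group; points are means and bars the SD of 5 mice. Tjp1-202 holds 65.2% to 67.9% in every group.

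Positions of the genes on GRCm38 (GENCODE M21) were chr5:136966616-136975858 for Cldn15, chr5:134986214-134987472 for Cldn3, chr5:134945119-134946934 for Cldn4, chr11:69964779-69967885 for Cldn7, chrX:139800828-139811386 for Cldn2, chr16:88560828-88563183 for Cldn8, chr8:35824712-35826559 for Cldn23, chr13:100496507-100552718 for Ocln, chr7:65296165-65527781 for Tjp1 and chr1:171437535-171464603 for F11r. Cldn3 and Cldn4 lie on opposite strands of the same stretch of chromosome 5.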

How the data were processed

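Poly-A RNA was sequenced on a NovaSeq instrument and, per the submitters' processing notes and the study's methods, the authors ran kallisto 0.44.0 against mouse transcripts of GRCm38. The authors deposited estimated counts per gene, held as whole numbers and not normalized, and for each mouse estimated counts and TPM per transcript. Of 113193 transcripts, 111362 matched GENCODE M21. None of the 10 genes was among the 124 of 11542 genes compared whose count was 2 times the sum of their transcripts. The goblet marker Muc2 had a count of 2 times that sum and enters the goblet sums with it. Counts were scaled by TMM and tested with edgeR 4.0.16 (quasi-likelihood, robust, R 4.3.3) on the 16306 genes that reached 0.5 CPM in 1 mouse or more, all 20 mice in 1 fit, and q under 0.05 was the call; 95% intervals come from that fit. The robust option was chosen after the data were seen, so that the fit matched earlier work on them. The fit was tested on simulated data. Alternatives used DESeq2 1.42.0, limma 3.58.1 (also on log2 TPM with pseudocounts of 1 and 0.1), other scalings and filters, each mouse left out and a replicate block. Transcript shares were compared by exact permutation.

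Named genes were every member, list genes with q under 0.05 (up to 8 a comparison), the 3 of highest TPM in each list, and for each called member the 3 genes of highest Pearson correlation among genes with a mean CPM of 1 or more. Marker lists covered enterocyte, crypt, goblet, Paneth, follicle epithelium, smooth muscle, endothelial and B cells; calls not given in the results stand in the closing section. A call for 1 gene of the tight junction list is not reported here. The members and lists were chosen with earlier results of these data known. The study gives its group size as a range, and the labels do not say which mice its plots show, so all 20 were used here.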

Additional observations from a re-analysis of the deposited data

Results flagged for a closer look

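Of 40 groups of 5 mice (10 genes in 4 groups), 5 held a mouse whose gap to the nearest other exceeded Dixon's 95% critical value of 0.71 of the group's range; chance alone flags about 1 in 20 groups. Cldn2 was 77.26 CPM in CD+ABX mouse 4, with the next highest at 52.5 CPM. Cldn4 was 94.08 CPM in TDD+ABX mouse 4 against 27.65 CPM in the next, and Cldn7 was 729.1 CPM in the same mouse against 605.4 CPM. Tjp1 was 155.1 CPM in CD+ABX mouse 3, with the next lowest at 166.3 CPM. F11r was 160.0 CPM in CD mouse 2 against 204.6 CPM in the next, the mouse with the low enterocyte sum.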

How the results depend on the processing

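For TDD against CD in SPF mice, 0 of the 10 genes were called, but 3 were by DESeq2 and 1, Cldn3, under each of upper-quartile scaling, a 0.5 CPM filter met by 5 mice, limma on log2(TPM + 1) and on log2(TPM + 0.1), and the 2 groups alone; leaving out each mouse gave 0 to 2. For ABX on CD, 2 were called, 1 (Cldn15) with upper-quartile scaling, limma-voom, no filter and limma on either TPM scale, 0 with only the 2 groups (Cldn15 q = 0.0561) or a 2-fold minimum, and 0 to 2 without each mouse. For ABX on TDD, limma on either TPM scale called 1 (Tjp1) where edgeR called 0. The other counts of called members did not change. Transcript shares gave 0 calls under each alternative, which the smallest possible p nearly fixes. Without robust shrinkage, an alternative chosen after the data were seen, the counts were the same. Mice with the same number did not vary together (mean correlation -0.09 to 0.054; 2 of 20 mice correlated best with their own number), so the numbers do not pair them; a replicate block gave 1 call (Cldn3) for diet in SPF mice, 1 (Cldn15) for ABX on CD and 0 elsewhere. No called member changed sign under any alternative. Over all genes, calls for diet in ABX-treated mice were 268, and 613 with DESeq2, 159 unfiltered and 113 with the block; diet in SPF mice gave 2342, and 1391 with the 2 groups alone; the interaction gave 6, and 134 with DESeq2. Without CD mouse 2 the calls were 3098 for diet in SPF mice, 486 for diet with ABX and 29 for the interaction. Leaving out each mouse gave 102 to 486 for diet with ABX and 0 to 29 for the interaction; ABX on TDD gave 2505, and 1367, 1536 and 1500 without TDD+ABX mouse 1, 2 or 3. DESeq2 called 4 of the 37 further tight junction genes with ABX on CD (Ildr1, Esam, Magi1, Ybx3), beside 16% of all genes, where edgeR called 2, and 3 of 15 adherens and desmosome genes on TDD (Jup, Nectin3, Pkp2), beside 19.9% of all genes, where edgeR called 1. For TDD in SPF mice and ABX on TDD the DESeq2 counts of the tight junction list also differed from edgeR's and are not reported here. Cldn8 had the lowest level, 2.11 to 5.24 CPM.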

Other observations

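Of the cell type lists, goblet genes gave 1 call of 7 for TDD in SPF mice, beside 14.4% of all genes. Clca1, a secreted goblet cell protein, fell there by 0.98 on the log2 scale (SE 0.16, edgeR's q = 0.000619). With ABX on TDD Clca1 rose by 0.65 (edgeR's q = 0.0124), the 1 call of 7 beside 15.4% of all genes. Of 7 Paneth genes, 1 was called for TDD in SPF mice, beside 14.4% of all genes. It was Mmp7, the protease that processes defensins, which rose by 0.84 (q = 0.0184, edgeR). Of the 7 fold changes there, 4 were above 0 and 3 below. With ABX on TDD Mmp7 fell by 0.77 (q = 0.0288, edgeR), the 1 call of 7 beside 15.4% of all genes. For TDD in ABX-treated mice Defa17 fell by 0.58 (q = 0.0359, edgeR), the 1 call of 7 beside 1.64% of all genes. With ABX on CD, where 12.6% of all genes were called, 3 of 7 follicle epithelium genes fell, Gp2 by 1.90 (q = 0.03), Tnfaip2 by 0.54 (q = 0.00553) and Anxa5 by 0.33 (q = 0.0419), and of 7 endothelial genes Vwf fell by 0.40 (q = 0.00544) beside Esam, all in edgeR. On TDD, where 15.4% were called, Tnfaip2 fell by 0.71 with ABX (q = 0.00118), and of 7 endothelial genes Pecam1 fell by 0.42 (q = 0.00841) and Kdr by 0.33 (q = 0.0295) beside Esam, all in edgeR.

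Crypt and smooth muscle genes had 0 calls by edgeR or DESeq2 in any comparison, with at most 2 of 8 crypt genes and 0 of 8 smooth muscle genes at an unadjusted p under 0.05. Over all genes the 5 comparisons gave 0.0368% to 15.4% by edgeR, 0.824% to 19.9% by DESeq2 and 8.87% to 30.5% at an unadjusted p under 0.05. B cell genes had 0 calls by edgeR, but with ABX on CD all 7 had an unadjusted p under 0.05 (26.5% of all genes) and DESeq2 called 4 (16% of all genes). For TDD in ABX-treated mice 5 had such a p (14.7% of all genes), while DESeq2 called 0 (3.77% of all genes), and the median of the 7 on the log2 scale was 3.10. Their summed level ranged from 7.87 to 122 CPM in CD mice, from 6.45 to 189 CPM in TDD mice, from 4.54 to 10.7 CPM in CD+ABX mice and from 5.61 to 129 CPM in TDD+ABX mice. Among CD mice, mice 2 and 3 had 82.8 and 122 CPM, and the others lay within the CD+ABX range. Among TDD+ABX mice, mouse 5 had 129 CPM and the others 5.61 to 31.05 CPM.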
